A study of Drosophila melanogaster with 18 samples.

Results

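The aminoacyl-tRNA synthetase genes of *Drosophila melanogaster* were followed in the larval fat body of flies from the Netherlands (NL) and Zambia (ZI) across the onset of metamorphosis. Members were the rows of the count table whose FlyBase symbol, looked up by FBgn identifier, is an amino acid abbreviation followed by RS, or by RS-m for an enzyme of the mitochondrion, with GluProRS, alpha-PheRS and beta-PheRS included. This rule, which uses no measured value, found 35 of the 16438 genes of the table, 20 cytosolic and 15 mitochondrial. All 35 passed the minimum applied throughout, a mean of 15 counts over the 18 libraries, as did 12460 genes in all.

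RNA was sequenced from dissected fat bodies of females staged at 25°C. The groups are early wandering larvae of the last instar (early) and late wandering larvae of that instar (late), told apart by the dye left in the gut, and white prepupae (prepupal), recognized by the formed puparium, of NL and of ZI. Each of the 6 groups had 3 libraries, and a library pooled 3 fat bodies from each isofemale strain, 36 fat bodies of 12 NL strains or 30 of 10 ZI strains. The 3 libraries of a group thus pooled the same strains, and their spread, on which every test rests, does not measure variation among strains. The labels name no treatment or engineered allele, and the groups differ in stage and population.

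A synthetase joins an amino acid to its cognate tRNA, the step that supplies the ribosome with charged tRNA. Most animal cells carry separate nuclear genes for the cytosolic and the mitochondrial enzyme of an amino acid, while a few genes serve both compartments. In mammals a group of the cytosolic enzymes, with 3 non-catalytic scaffold proteins, sits in a multi-synthetase complex. The larval fat body, the counterpart of liver and adipose tissue, makes storage proteins for the hemolymph in very large amounts until feeding ends, and is later remodelled.

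The libraries held 14998610 to 37250385 counts, of which the 10 most abundant genes of a library took 43.8% to 56.2%. The 8 fat body markers, storage proteins and lipid carriers among them, summed to between 262504 and 585859 CPM (counts scaled to a common library total) in every library, so the labelled tissue was present. CPM were scaled between libraries with TMM factors, and between genes only TPM, which also divide by gene length, were compared. Hemocyte markers summed to 62.2 to 85.3 CPM in NL prepupae and 49.1 to 58.0 CPM in ZI prepupae, against 232 to 260 CPM in early NL and 210 to 257 CPM in early ZI larvae. Muscle markers summed to 29.1 to 132 CPM in NL prepupae and 24.6 to 30.2 CPM in ZI prepupae, against 197 to 228 CPM in early NL and 163 to 222 CPM in early ZI larvae. Prepupal against early, 7 of 7 hemocyte markers were called lower in NL and 5 in ZI, 5 and 6 of 6 muscle markers, 7 and 6 of 8 fat body markers, 5 and 4 of 5 salivary gland markers and 3 and 0 of 6 midgut markers, where 26.1% of all genes were in NL and 23.1% in ZI. Of 6 imaginal disc markers 3 were called higher in NL and 2 in ZI, where 19.4% and 18% of all genes were. No marker was at 0 in every library. Neuron and glia markers summed to more in prepupae, at 384 to 451 CPM in NL and 564 to 645 CPM in ZI. Early larvae had 264 to 309 CPM in NL and 296 to 364 CPM in ZI. Late larvae had 321 to 371 CPM in NL and 531 to 557 CPM in ZI. Most of that sum was *Syt1*, which averaged 389 CPM, and *elav* came next at 15.1 CPM. Female gonad markers summed to 6.38 to 12.2 CPM over all libraries. The part of these cell types in the results below was not tested.

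The members are spread over the genome, with 6 on 2L, 8 on 2R, 10 on 3L, 7 on 3R and 4 on X in the release 6 assembly. The only neighbours among them are GluRS-m (3L:16415292-16417177) and TyrRS (3L:16417349-16419302), both on the minus strand with 171 bases between them. Exons of 16 members overlap an exon of another gene. Whether the strand was used in counting is not given in the sources used here, and without it reads from shared bases cannot be told apart. The overlap was widest for AspRS (2R:12877004-12883168, plus strand), 73.5% of whose exon bases are shared with *Nmda1*, asRNA:CR45141 and asRNA:CR43468. GluProRS (3R:23952136-23958391, minus strand) shared 16.6% with asRNA:CR46092, and HisRS (X:18515428-18520445, plus strand) shared 8.91% with *Bx*. The other 19 members, without any exon overlap, are counted separately where a count turns on them.

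Most cytosolic members were more abundant than most mitochondrial ones. Over the 18 libraries the cytosolic members averaged between 8.07 TPM (MetRS, which charges methionine tRNA) and 115 TPM (AspRS, aspartate), with a median over genes of 20.1 TPM. The mitochondrial members averaged between 1.14 TPM (GluRS-m, glutamate) and 15.4 TPM (PheRS-m, phenylalanine), with a median of 3.34 TPM, close to the median of 3.48 TPM over all 12460 genes. After AspRS came AsnRS (38.6 TPM), TyrRS (37.8 TPM), SerRS (33.0 TPM) and ThrRS (30.1 TPM), which charge asparagine, tyrosine, serine and threonine tRNA. AsnRS and TyrRS did not keep this order at every stage, since AsnRS was the higher at 61.9 ± 5.37 TPM in early NL larvae, where TyrRS had 42.4 ± 1.80 TPM, and the lower at 24.0 ± 2.28 TPM in NL prepupae, where TyrRS had 35.4 ± 3.67 TPM (SD, n = 3). Depth was ample for cytosolic members, at 155 to 6879 counts per library, and thin for the rarest mitochondrial members, the lowest value being 12 counts, so small changes of those were hard to detect.

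**Figure D1:**
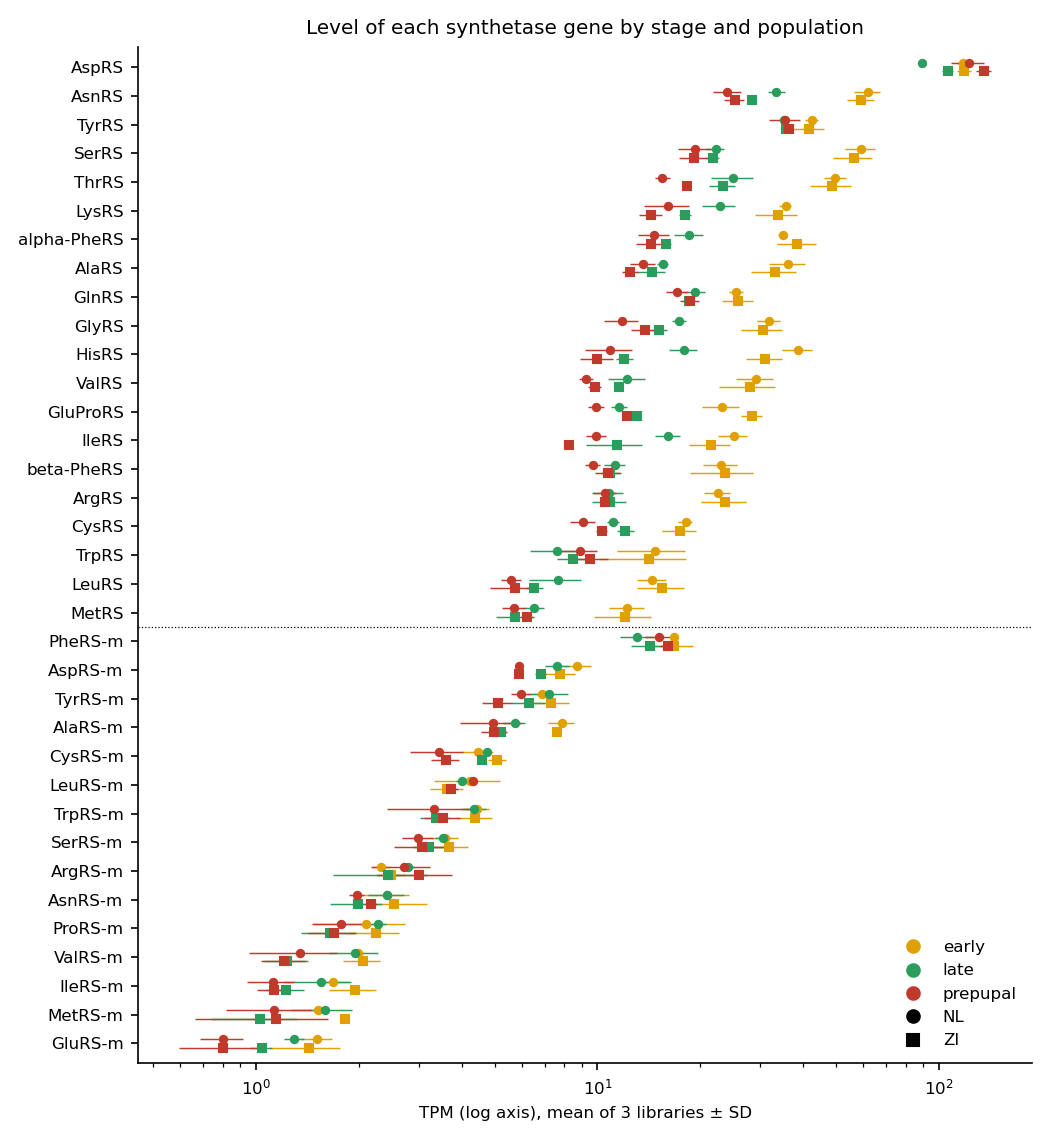
Mean TPM of the 35 synthetase genes in each population and stage (log axis, points are means of 3 libraries, bars are SD), ordered by mean level within the cytosolic (above the dotted line) and mitochondrial members. Early points lie to the right of late and prepupal points for nearly all cytosolic genes, AspRS stands apart at 115 TPM on average, and PheRS-m at 15.4 TPM is the highest mitochondrial gene.

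Between the early and the late stage most members were called lower, cytosolic ones more often than mitochondrial ones. In NL 30 of 35 members were called lower and none higher (edgeR quasi-likelihood test, Benjamini-Hochberg adjusted p under 0.05 over 12460 genes), where 23.2% of all genes were called lower and 18.4% higher. In ZI 23 were called lower and none higher, where 17% and 18.7% of all genes were called in these directions. The median log2 fold change of the 35 was -0.94 in NL and -0.82 in ZI, beside medians of 0.14 and -0.11 over all genes. In bulk tissue, fewer cells with these transcripts and less of them per cell cannot be told apart. The 3 late libraries lay below the 3 early ones for 32 members in NL and 29 in ZI, where 25.1% and 24.7% of all genes did so. Among the 19 members without exon overlap 18 fell in NL and 16 in ZI.

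All 20 cytosolic members were called lower in late than in early NL larvae, with a median log2 fold change of -1.41 and a range of -1.90 to -0.76. In ZI 18 of the 20 were called, with a median of -1.14, and the exceptions were AspRS (log2 fold change -0.24, adjusted p = 0.139) and TyrRS (-0.30, adjusted p = 0.0909). TyrRS had 46.8, 35.9 and 33.8 CPM in late and 68.3, 67.5 and 60.9 CPM in early NL libraries, and 39.9, 48.8 and 46.4 CPM in late and 59.7, 50.1 and 56.9 CPM in early ZI libraries, so that its stages did not overlap in either population. The 8 enzymes that sit in the multi-synthetase complex of mammals, those for arginine, aspartate, glutamine, isoleucine, leucine, lysine and methionine with GluProRS, had medians of -1.26 in NL and -1.07 in ZI. The other 12 had medians of -1.44 and -1.16. By the fold of the catalytic domain, the 9 class I enzymes had medians of -1.40 and -0.98 and the 10 class II enzymes of -1.43 and -1.16. Differences between these groupings were not tested.

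SerRS (2L:3035493-3037403), which also charges the selenocysteine tRNA in species that have it, had the lowest log2 fold change late against early in both populations. It had 102, 94.6 and 97.8 CPM in early, 32.0, 25.1 and 22.1 CPM in late and 21.2, 24.7 and 21.2 CPM in prepupal NL libraries. In ZI it had 88.9, 75.8 and 77.6 CPM in early, 27.5, 31.4 and 29.7 CPM in late and 23.7, 20.8 and 23.2 CPM in prepupal libraries. Every early library was far above every later one in both populations, and the late and prepupal libraries overlapped in NL. Late against early, SerRS was 3.72-fold lower in NL (log2 fold change -1.90 ± 0.13 SE, adjusted p = 1.99e-09) and 2.74-fold lower in ZI (-1.45 ± 0.13, adjusted p = 2.51e-08; edgeR quasi-likelihood, n = 3 per group).

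ValRS and AlaRS, the valine and alanine enzymes, came next in NL. ValRS had 97.4, 81.3 and 79.6 CPM in early, 27.1, 26.9 and 22.6 CPM in late and 19.9, 20.2 and 17.2 CPM in prepupal NL libraries. The corresponding ZI libraries had 83.1, 63.4 and 66.2 CPM, then 24.2, 31.7 and 28.0 CPM, then 21.7, 20 and 19.7 CPM. The groups of the 3 stages did not overlap in either population, and the late level was 3.37-fold lower in NL (-1.75 ± 0.14, adjusted p = 8.19e-09). AlaRS had 115, 96.5 and 91.8 CPM in early, 35, 28.3 and 29.1 CPM in late and 26.4, 28.0 and 24.8 CPM in prepupal NL libraries. The ZI libraries held 90.2, 69.8 and 79.3 CPM, then 31.3, 36.8 and 30.3 CPM, then 26.0, 23.8 and 24.0 CPM in the same stages. AlaRS was 3.28-fold lower in late NL larvae (-1.71 ± 0.13, adjusted p = 6.35e-09), with early libraries well above the rest and late and prepupal libraries nearly touching.

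Phenylalanine is charged in the cytosol by an enzyme of 2 kinds of subunit, alpha-PheRS and beta-PheRS, encoded on X and 3R. alpha-PheRS had 50.2, 57.3 and 48.0 CPM in early, 25.5, 17.6 and 16.3 CPM in late and 16.1, 14.8 and 14.3 CPM in prepupal NL libraries. In ZI it had 54.3, 44.7 and 48.3 CPM in early, 17.6, 21.1 and 19.1 CPM in late and 15.3, 16.4 and 13.4 CPM in prepupal libraries. Early libraries of alpha-PheRS lay far above all later ones. beta-PheRS had 44.8, 39.2 and 34.1 CPM in early, 14.9, 13.3 and 12.7 CPM in late and 11.7, 12.7 and 10.3 CPM in prepupal NL libraries. Its ZI libraries held 41.4, 29.9 and 32.7 CPM in early, 13.7, 17.5 and 14.6 CPM in late and 13.1, 13.8 and 12.0 CPM in prepupal libraries. Early libraries of beta-PheRS were again the highest, and late and prepupal libraries overlapped. Late against early, alpha-PheRS changed by -1.39 ± 0.15 in NL and -1.35 ± 0.15 in ZI and beta-PheRS by -1.53 ± 0.14 and -1.18 ± 0.14 on the log2 scale, all called by edgeR, with alpha-PheRS in ZI 2.55-fold lower (adjusted p = 3.25e-07). Per length, in TPM, the alpha subunit was the more abundant in all 18 libraries, at 1.29 to 1.98 times the TPM of the beta subunit with a median ratio of 1.51.

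MetRS, the least abundant cytosolic member, had 41.6, 36.7 and 31 CPM in early, 16.2, 13.6 and 11.6 CPM in late and 11.7, 12.6 and 10.9 CPM in prepupal NL libraries. In ZI its level was 36.0, 26.4 and 29.6 CPM in early, 14, 14.2 and 13.3 CPM in late and 14.3, 12.3 and 12.6 CPM in prepupal libraries. Early libraries were above all others, late and prepupal libraries overlapped, and late against early MetRS changed by -1.40 in NL and -1.15 in ZI, both called.

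**Figure D2:**
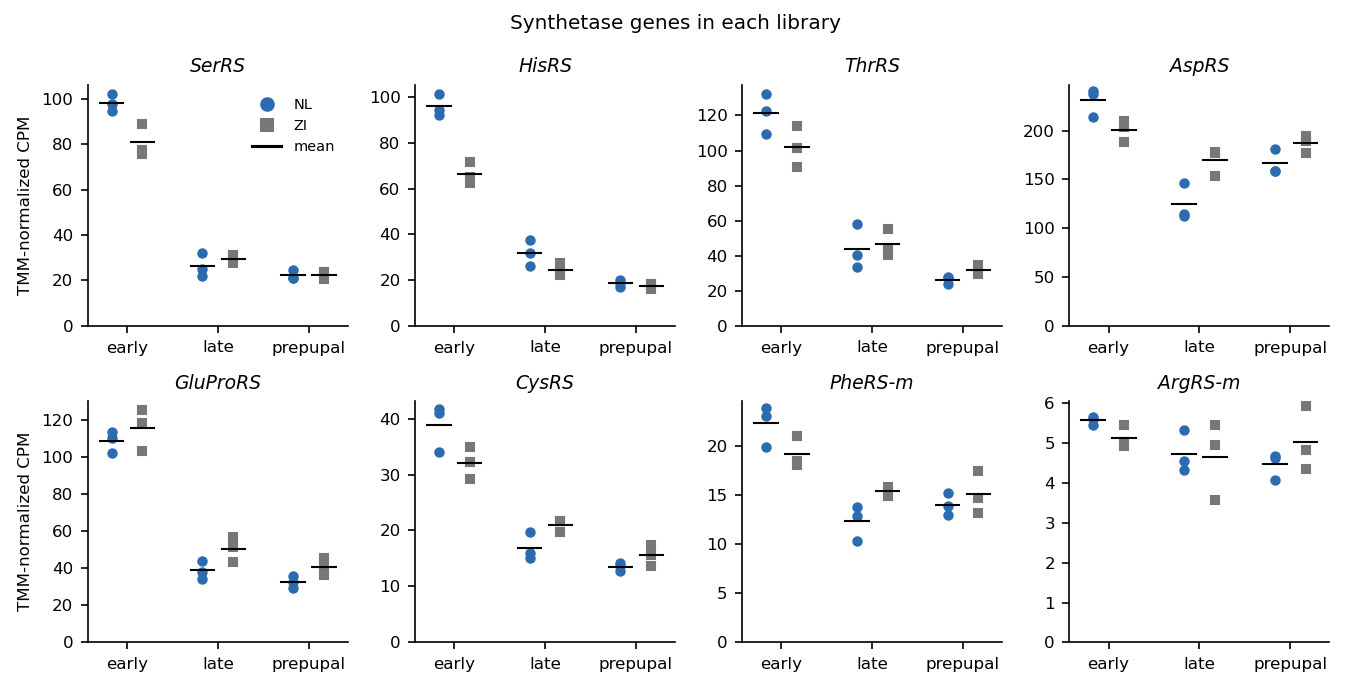
TMM-normalized CPM of 8 synthetase genes in each of the 18 libraries (points; the line is the mean of 3 libraries), with NL left of ZI at each stage. SerRS, HisRS, ThrRS and GluProRS drop steeply by the late stage in both populations. CysRS drops less in ZI, where late libraries have 19.7 to 21.8 CPM and prepupal libraries 13.7 to 17.5 CPM. AspRS is lowest in late NL libraries, at 112 to 147 CPM, and ArgRS-m stays between 3.57 and 5.93 CPM.

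From the late to the prepupal stage the change was smaller and most members were not called. In NL 10 members were called lower and 1 higher, where 7.45% and 7.68% of all genes were, and the median was -0.33 beside -0.09 over all genes. The NL count of lower members was 6 without the library NL prepupal 2 (the number is the replicate), 4 with the compared libraries alone, 6 with median-of-ratios factors and 21 with TMM over well-expressed genes. In ZI 8 were called lower and none higher, where 8.69% and 3.64% of all genes were, and the median was -0.30 beside -0.00 over all genes. The ZI count rested on few libraries, being 0 without ZI late 2, 1 without ZI prepupal 3 and 15 without NL late 1. It was 1 lower and 1 higher under upper-quartile scaling and also under library totals alone. For changes from the late to the prepupal stage, the losses named below for single members are those on leaving out 1 library. The members called lower in both populations included HisRS, IleRS and ThrRS, for histidine, isoleucine and threonine.

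HisRS fell further after the late stage. It had 101, 92.2 and 94.5 CPM in early, 37.4, 32.1 and 26.0 CPM in late and 17.2, 20.3 and 18.9 CPM in prepupal NL libraries, with no overlap between stages. The ZI libraries held 71.5, 65.4 and 62.5 CPM in early, 22.5, 27.5 and 23.4 CPM in late and 18.1, 16.4 and 18.3 CPM in prepupal libraries, again without overlap. Prepupal against late, the log2 fold change was -0.76 ± 0.13 in NL (adjusted p = 0.000288) and -0.48 ± 0.13 in ZI (adjusted p = 0.0183, lost without ZI late 2 or ZI prepupal 2). Late against early ZI larvae differed by -1.44 ± 0.13 (adjusted p = 2.74e-08). Over the whole interval HisRS fell the most of all 35 members, to a level 5.12-fold lower in NL prepupae than in early NL larvae and 3.78-fold lower in ZI (-2.36 ± 0.13 and -1.92 ± 0.13).

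ThrRS (2L:12103751-12107170) had 132, 123 and 109 CPM in early, 58.1, 40.2 and 33.6 CPM in late and 27.1, 28.1 and 23.8 CPM in prepupal NL libraries. In ZI it had 114, 90.8 and 101 CPM in early, 40.5, 55.4 and 43.7 CPM in late and 34.7, 30.4 and 29.7 CPM in prepupal libraries. The stages did not overlap in either population. Prepupal against late, ThrRS changed by -0.74 ± 0.17 in NL (adjusted p = 0.00408) and by -0.56 ± 0.17 in ZI (adjusted p = 0.0341), with the ZI call held in 20 of 26 alternatives and lost without ZI late 2, ZI late 3, ZI prepupal 2 or ZI prepupal 3. IleRS had 95.4, 86.9 and 73.8 CPM in early, 46.1, 38.9 and 32.3 CPM in late and 23.2, 26.9 and 20.7 CPM in prepupal NL libraries. The ZI libraries held 69.6, 58.9 and 60.0 CPM in early, 27.9, 41.1 and 26.4 CPM in late and 21.6, 19.6 and 18.3 CPM in prepupal libraries. Again no stages overlapped, and prepupal against late IleRS changed by -0.73 ± 0.17 in NL (adjusted p = 0.00392) and by -0.68 ± 0.17 in ZI (adjusted p = 0.00953, lost without ZI late 2 or ZI prepupal 3).

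Over the whole interval 34 of 35 members were called lower in NL prepupae than in early NL larvae, where 26.1% of all genes were called lower and 19.4% higher. In ZI 32 of 35 were, where 23.1% and 18% of all genes were called in these directions, and no member was called higher in either population. The medians were -1.26 in NL and -1.06 in ZI, beside 0.09 and 0.03 over all genes. ArgRS-m was not called in either population, and AspRS and LeuRS-m were not called in ZI. Summed over the 20 cytosolic members, the level was 716 ± 48.2, 411 ± 19.1 and 379 ± 34.7 TPM in early, late and prepupal NL groups and 701 ± 82.9, 400 ± 9.77 and 401 ± 15.2 TPM in ZI (SD, n = 3). All 35 together took 0.138%, 0.0855% and 0.0741% of the counts of these NL groups and 0.130%, 0.0773% and 0.0768% of those of the ZI groups. For the cytosolic members called in prepupae, a median of 81.2% of the log2 change was already present at the late stage in NL and 75.3% in ZI. The corresponding medians for mitochondrial members were 55.0% and 69.7%.

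**Figure D3:**
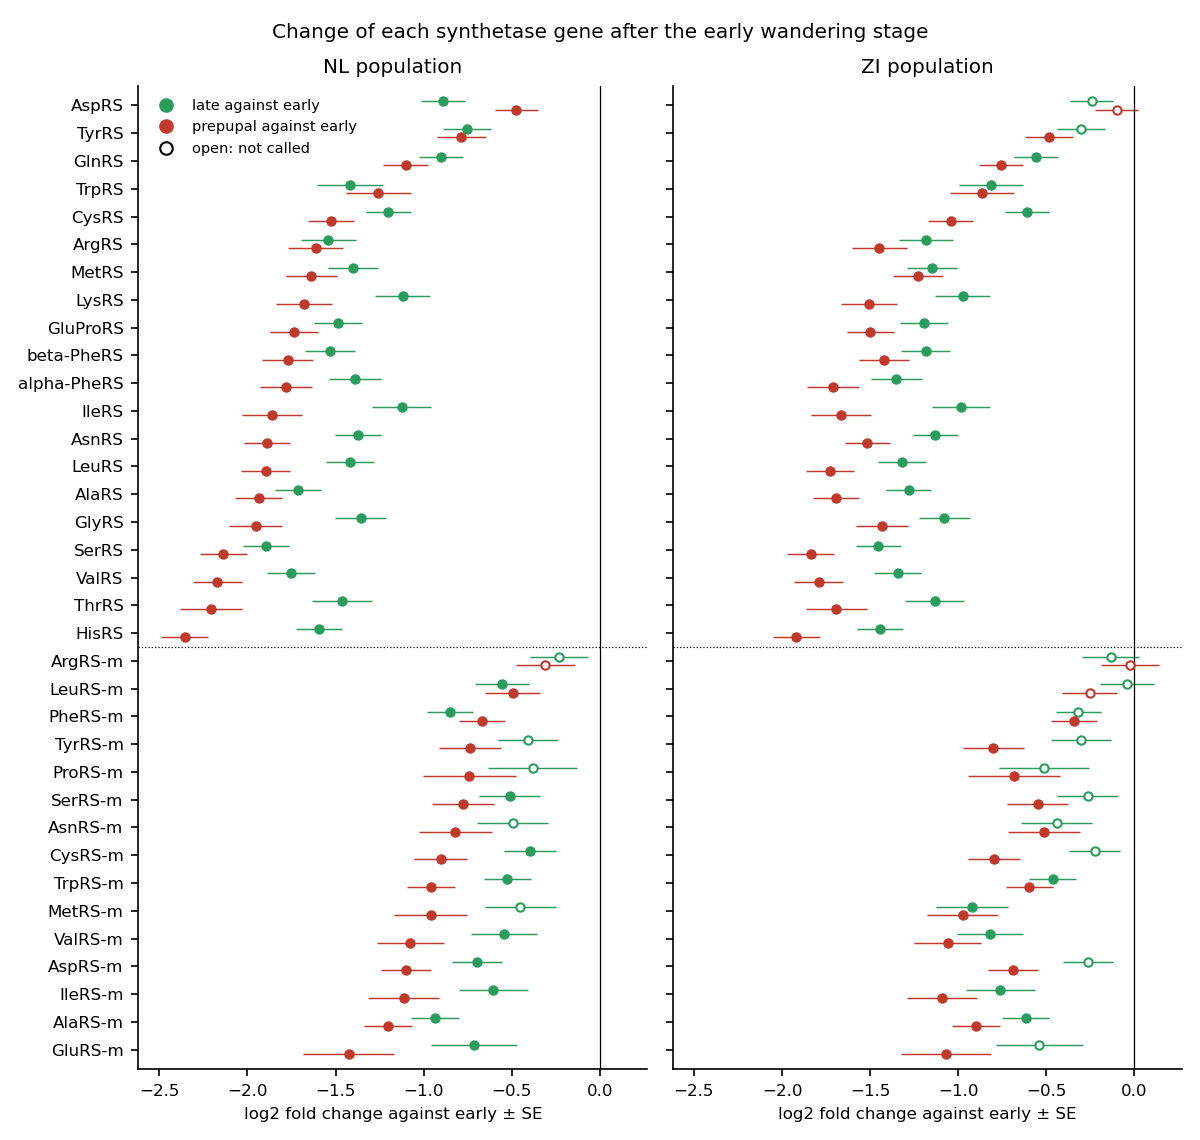
Log2 fold changes of each synthetase gene against the early stage (points, edgeR estimates; bars, SE), with cytosolic genes above and mitochondrial genes below the dotted line and open points not called at an adjusted p under 0.05. Prepupal points run from -2.36 (HisRS, NL) to -0.02 (ArgRS-m, ZI), and late points lie between them and 0 for most genes.

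The mitochondrial members had smaller changes than the cytosolic ones. The family holds no RS-m gene for glycine, histidine, lysine, threonine or glutamine, and the genes of these amino acids are counted as cytosolic. Whether any of those genes also serves the mitochondrion cannot be told from the symbols. Late against early, 10 of 15 were called lower in NL and 5 in ZI, with medians of -0.53 and -0.44. Of all genes 23.2% and 17% were. By the prepupal stage 14 and 13 were, with medians of -0.90 and -0.69, where 26.1% and 23.1% of all genes were. Summed over the 15, the level was 70.5 ± 4.40, 64.2 ± 1.61 and 56.9 ± 5.05 TPM in early, late and prepupal NL groups (SD, n = 3). In ZI it was 70.8 ± 5.30, 58.1 ± 3.80 and 57.1 ± 2.33 TPM. TPM carry no TMM factors, and late against early these sums moved less than the medians with TMM. In late NL larvae the mean TPM of ArgRS-m, AsnRS-m, CysRS-m, MetRS-m, ProRS-m and TyrRS-m was no lower than in early ones. That of the other mitochondrial members was lower. Scaled by library totals alone, the late against early estimates of CysRS-m, SerRS-m, TrpRS-m and ValRS-m in NL turned positive. The largest mitochondrial falls over the whole interval were those of GluRS-m in NL and of IleRS-m in ZI (-1.09), and GluRS-m was the least abundant member. It had 2.22, 2.20 and 2.29 CPM in early, 1.53, 1.35 and 1.20 CPM in late and 0.938, 0.753 and 0.775 CPM in prepupal NL libraries, without overlap. In ZI it had 1.30, 2.10 and 2.09 CPM in early, 1.20, 1.30 and 1.25 CPM in late and 1.14, 0.589 and 0.814 CPM in prepupal libraries, where the lowest early library touched the highest late one. Prepupal against early, it changed by -1.43 ± 0.26 in NL (adjusted p = 0.000105) and -1.07 ± 0.26 in ZI (adjusted p = 0.00167), with SEs larger than those of all other members but ProRS-m.

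PheRS-m, a monomeric enzyme that charges phenylalanine tRNA in the mitochondrion and the most abundant mitochondrial member, changed little after the late stage. It had 23.1, 23.9 and 20 CPM in early, 13.8, 12.9 and 10.3 CPM in late and 15.2, 13.9 and 12.9 CPM in prepupal NL libraries. The ZI libraries held 21.1, 18.5 and 18.1 CPM, then 15.5, 14.9 and 15.8 CPM, then 17.5, 14.7 and 13.2 CPM in these stages. Early libraries were above all later ones in both populations and late and prepupal libraries overlapped. Prepupal against early, the change was -0.67 ± 0.13 in NL (adjusted p = 0.000213) and -0.34 ± 0.13 in ZI (adjusted p = 0.0388). CysRS-m, for cysteine, had 9.05, 7.82 and 7.76 CPM in early, 7.36, 5.70 and 5.65 CPM in late and 4.81, 3.89 and 4.36 CPM in prepupal NL libraries. The ZI libraries held 7.18, 8.01 and 9.02 CPM in early, 6.16, 7.69 and 6.85 CPM in late and 4.67, 5.01 and 4.28 CPM in prepupal libraries. Early and late ZI libraries overlapped, and prepupal libraries were the lowest in both populations. Prepupal against late, CysRS-m changed by -0.51 ± 0.15 in NL (adjusted p = 0.0248, lost without NL late 1, NL prepupal 2 or NL prepupal 3) and by -0.57 ± 0.15 in ZI (adjusted p = 0.0135, lost without ZI late 2 or ZI prepupal 3).

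ArgRS-m, the mitochondrial arginine enzyme, named here because its values set it apart, had 5.59, 5.66 and 5.44 CPM in early, 5.33, 4.55 and 4.32 CPM in late and 4.63, 4.08 and 4.68 CPM in prepupal NL libraries. Its ZI libraries had 5.44, 4.93 and 5.01 CPM in early, 5.45, 3.57 and 4.95 CPM in late and 4.34, 4.81 and 5.93 CPM in prepupal libraries, all overlapping. Its log2 fold change over the whole interval was -0.31 ± 0.17 in NL (adjusted p = 0.138) and -0.02 ± 0.16 in ZI (adjusted p = 0.936), and 11.8% of its exon bases are shared with *mRpS9* on the other strand.

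For 13 amino acids a cytosolic gene of that amino acid alone and a mitochondrial gene were measured, which gave 14 pairs since PheRS-m was set against each cytosolic subunit. GluProRS, which serves glutamate and proline together, was left out of these pairs. Prepupal against early it changed by -1.74 in NL and -1.50 in ZI, beside -1.43 and -1.07 for GluRS-m and -0.74 and -0.69 for ProRS-m, all called. The cytosolic gene had the higher mean TPM in 13 pairs, with a median ratio of 5.74 and a highest ratio of 17.1 for asparagine, and only beta-PheRS was at 0.968 times the TPM of PheRS-m. The cytosolic gene also had the lower log2 fold change in all 14 pairs late against early and in 13 prepupal against early in NL, and in 12 at both times in ZI. The median difference between the fold changes, cytosolic minus mitochondrial, was -0.83 and -0.91 in NL and -0.59 and -0.76 in ZI at the late and prepupal stages. The exceptions were aspartate at the prepupal stage in NL and aspartate and tyrosine at both times in ZI. The pairs share libraries and are not independent, so the counts were not tested. The difference was widest for arginine, leucine and serine, at -1.30, -1.40 and -1.36 in NL prepupae.

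**Figure D4:**
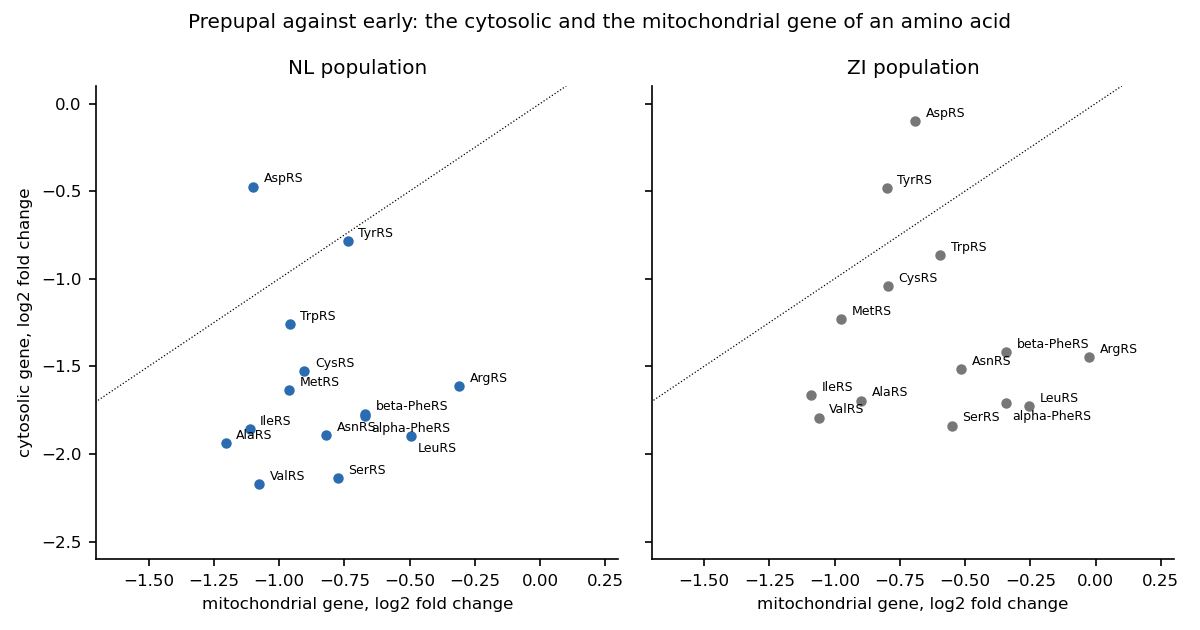
Prepupal against early log2 fold change of the cytosolic gene (vertical axis) and of the mitochondrial gene (horizontal axis) of the same amino acid in NL and ZI, with the line of equal change dotted and points labelled by the cytosolic gene. Of the 14 pairs, 13 lie below the line in NL and 12 in ZI, with AspRS above it in both and TyrRS above it in ZI.

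AspRS departed from the other cytosolic genes. It had 241, 238 and 214 CPM in early, 147, 115 and 112 CPM in late and 159, 182 and 159 CPM in prepupal NL libraries. In ZI it had 203, 189 and 210 CPM in early, 154, 178 and 177 CPM in late and 194, 189 and 177 CPM in prepupal libraries. The NL level was lowest at the late stage, with no overlap between any of the 3 NL stages, whereas early and prepupal ZI libraries overlapped. Late against early, it changed by -0.89 ± 0.12 in NL (adjusted p = 9.48e-06), and it was the only member called higher in prepupae than in late larvae, by 0.42 ± 0.12 in NL (adjusted p = 0.0247). That call was lost without NL late 2, NL late 3 or NL prepupal 2, over adjusted p values of 0.000233 to 0.122 in all alternatives. As the other cytosolic levels fell, AspRS made up 16.5%, 21.7% and 32.2% of the summed cytosolic TPM in early, late and prepupal NL groups and 17%, 26.5% and 33.7% in ZI groups. Prepupal against early, it changed by -0.47 ± 0.12 in NL (adjusted p = 0.00319) and by -0.10 ± 0.12 in ZI (adjusted p = 0.592), estimates that turned to 0.07 and 0.25 under library totals alone. The shared exon bases described above bear on AspRS more than on any other member. *Nmda1*, on the opposite strand, had 60.0 to 77.0 CPM in early, 77.2 to 83.4 CPM in late and 87.2 to 116 CPM in prepupal NL libraries, and 57.2 to 77.3, 93.5 to 123 and 103 to 119 CPM in the same stages of ZI. asRNA:CR45141, also on the opposite strand, had 31.5 to 34.6 CPM in early, 19.0 to 22.1 CPM in late and 22.9 to 24.7 CPM in prepupal NL libraries, and 29.1 to 32.3, 22.8 to 30.5 and 25.8 to 30.5 CPM in ZI. In NL this antisense gene was thus lowest at the late stage, like AspRS, and *Nmda1* was not. The part of these neighbours in the AspRS counts was not tested.

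Most partners of the synthetases fell too. The 3 scaffold proteins of the multi-synthetase complex all fell, with prepupal against early changes of -1.10 and -0.94 for AIMP1, -1.50 and -1.11 for AIMP2 and -1.52 and -1.21 for AIMP3 in NL and ZI, each called. AIMP2 had 29.7, 30.0 and 29.3 CPM in early, 15.3, 10.5 and 11.2 CPM in late and 10.9, 11.6 and 9.13 CPM in prepupal NL libraries, with early values well above the rest. SLIMP, an insect paralogue of seryl-tRNA synthetase that acts in mitochondria without charging tRNA, fell by 1.24 and 1.08 on the log2 scale. The mitochondrial amidotransferase, which makes glutaminyl-tRNA from glutamyl-tRNA in place of a mitochondrial GlnRS, had changes of -1.18 and -0.96 for GatA and of -0.59 and -0.38 for GatC, each called, while GatB was not called (-0.45 and -0.24). Dtd, which clears D-amino acids from tRNA, had log2 fold changes of 0.57 and 0.34, neither called. In all, 6 of 8 partners were called lower in prepupae of each population, where 26.1% of all genes were in NL and 23.1% in ZI. The medians were -1.14 in NL and -0.95 in ZI, beside 0.09 and 0.03 over all genes.

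The genes that use charged tRNA fell by different amounts. Of all genes 26.1% were called lower in NL prepupae and 23.1% in ZI prepupae, the shares to set beside the prepupal counts that follow. Of the 7 cytosolic elongation factors 6 were called lower in NL prepupae and 5 in ZI prepupae, with medians of -0.59 and -0.41, and the nucleotide exchange subunit eEF1delta stood out at -2.29 and -2.16. eEF1alpha1, which delivers charged tRNA to the ribosome, changed by -0.46 in NL (adjusted p = 0.0213) and by -0.23 in ZI (adjusted p = 0.276). Of the 83 cytosolic ribosomal protein genes 80 were called lower in NL and 72 in ZI, with medians of -0.75 and -0.54, and of the 72 mitochondrial ones 67 and 65, with medians of -1.20 and -0.90. Late against early, the cytosolic ribosomal proteins differed in number called, 79 in NL with a median of -0.66 and 6 in ZI with a median of -0.26. Of all genes 23.2% were called lower in NL and 17% in ZI. None of these ribosomal protein genes had a called difference between the populations in that change (15 at an unadjusted p under 0.05), where 7.87% of all genes did. Of the 9 mitochondrial translation factors 5 fell in NL and 4 in ZI, among them mEFTu1, the mitochondrial counterpart of the tRNA-delivering factor, at -1.58 and -1.27. Placed beside these, the cytosolic synthetases had lower medians, -1.78 and -1.50, than any of the lists of translation genes, while the mitochondrial synthetases, at -0.90 and -0.69, lay above the mitochondrial ribosomal proteins. These differences between lists were not tested, and the values of the lists are given here with TMM alone. Library totals raised the median over all genes to 0.64 in NL and 0.38 in ZI.

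Genes of the response to amino acid shortage moved in both directions. Sesn, a leucine-responsive inhibitor of TOR signalling, had 55.2, 66.3 and 54.0 CPM in early, 122, 124 and 122 CPM in late and 264, 288 and 248 CPM in prepupal NL libraries. The ZI libraries held 40.4, 45.5 and 60.9 CPM, then 133, 145 and 160 CPM, then 248, 223 and 220 CPM in the same stages. The stages did not overlap in either population, and the prepupal level was higher than the early one by 2.19 in NL and 2.24 in ZI on the log2 scale. Thor, the 4E-BP translation inhibitor, was higher in prepupae by 1.32 and 1.38. The subunits of eIF2, the factor that the kinase Gcn2 phosphorylates when uncharged tRNA accumulates, fell in prepupae by 1.23 and 0.86 (eIF2alpha), 1.91 and 1.37 (eIF2beta) and 1.57 and 1.18 (eIF2gamma) in NL and ZI. Gcn2 itself changed by -0.31 in NL (adjusted p = 0.0174) and -0.12 in ZI (adjusted p = 0.401), and crc, the fly ATF4, was not called in either (0.12 and 0.19). Of the 12 genes 7 were called lower and 2 higher in NL prepupae, and 4 lower and 3 higher in ZI prepupae, where 26.1% and 19.4% of all genes were in NL and 23.1% and 18% in ZI. Apart from the count lower in NL, these shares lie near those of all genes.

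Few members were called between the populations. The counts lay near the shares of all genes in early larvae and prepupae, and below them in late larvae with TMM. In early larvae 1 of 35 was called higher in NL than in ZI and none lower (9 at an unadjusted p under 0.05 in either direction, and also 1 higher by DESeq2), where 4.53% of all genes were called higher and 3% lower. Of the 35 members 32 had positive estimates, the median was 0.23 beside 0.03 over all genes, and all 3 NL libraries lay above the 3 ZI libraries for 15 members, where 14.9% of all genes did so. The count of calls was 5 without NL early 3 or without NL late 1. In late larvae 1 member was higher in NL and 2 were lower, where 13.7% and 14.1% of all genes were, with a median of -0.04 beside 0.04 over all genes. Here the split depended on scaling, with 6 higher and 1 lower under upper-quartile scaling, 7 and 1 under TMM over well-expressed genes and 7 and 0 under library totals alone. In prepupae no member was called in either direction by edgeR or by DESeq2, and 1 had an unadjusted p under 0.05 in edgeR, where 2.66% of all genes were called higher and 2.09% lower.

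HisRS was the member called higher in NL at both larval stages. The early NL libraries, at 92.2 to 101 CPM, all lay above the ZI libraries, at 62.5 to 71.5 CPM, a log2 difference of 0.53 ± 0.13 (adjusted p = 0.00975, edgeR). That call held in 26 of 26 alternatives, with adjusted p values of 0.00119 to 0.041. At the late stage the NL libraries, at 26.0 to 37.4 CPM, overlapped with the ZI libraries, at 22.5 to 27.5 CPM. The difference of 0.38 ± 0.13 (edgeR adjusted p = 0.0337) was called in 19 of 26 alternatives and lost without NL late 2, ZI late 1 or ZI late 3. It was also lost with DESeq2, median-of-ratios factors, no filter or the compared libraries alone. In prepupae HisRS had 17.2 to 20.3 CPM in NL and 16.4 to 18.3 CPM in ZI, a difference of 0.09 ± 0.13.

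The members called lower in late NL larvae were AspRS and GluProRS. AspRS had 112 to 147 CPM in NL and 154 to 178 CPM in ZI, without overlap (-0.44 ± 0.12, edgeR adjusted p = 0.0135). It was called in 20 of 26 alternatives but lost without NL late 2, NL late 3, ZI late 2 or ZI late 3. The AspRS call was also lost with the compared libraries alone and under library totals alone. GluProRS, a single polypeptide that charges both glutamate and proline tRNA, had 44.0, 38.1 and 34.2 CPM in late NL libraries and 43.4, 56.5 and 51.3 CPM in late ZI libraries. The groups overlapped by the highest NL library (-0.38 ± 0.13, edgeR adjusted p = 0.0416), and the call held in 16 of 26 alternatives. It was lost without NL late 2, NL late 3, ZI late 2, ZI late 3, NL prepupal 1 or ZI prepupal 2. It was also lost with the compared libraries alone, library totals alone, upper-quartile scaling and TMM over well-expressed genes. In early libraries GluProRS had 113, 102 and 110 CPM in NL and 118, 103 and 125 CPM in ZI, and in prepupal libraries 32.8, 35.8 and 29.2 CPM in NL and 45.5, 40.6 and 36.4 CPM in ZI. All prepupal NL libraries were below the ZI libraries, but the difference of -0.33 ± 0.13 was not called (adjusted p = 0.233). Prepupal against early, GluProRS changed by -1.74 ± 0.14 in NL and -1.50 ± 0.14 in ZI.

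A test of the interaction, for a fall between the early and late stages that differs between the populations, was called for 2 of 35 members, AspRS and CysRS. It was called in 7.87% of all genes, so the count of members is near that share. The change of AspRS was lower in NL than in ZI by -0.65 ± 0.17 on the log2 scale (adjusted p = 0.0338), and that of CysRS by -0.59 ± 0.18 (adjusted p = 0.0479). CysRS had 41.0, 41.7 and 34.0 CPM in early, 19.7, 15 and 16.0 CPM in late and 13.7, 14.1 and 12.7 CPM in prepupal NL libraries. In ZI it had 34.9, 29.1 and 32.2 CPM in early, 19.7, 21.8 and 21.7 CPM in late and 17.5, 15.6 and 13.7 CPM in prepupal libraries. Early NL and ZI libraries overlapped, and late NL libraries met the ZI libraries at 19.7 CPM. Neither call was made under upper-quartile scaling, TMM over well-expressed genes or library totals alone, and leaving out 1 library gave between 0 and 9 called members, 0 for 8 of the libraries from the early and late stages. No interaction was called between the late and prepupal stages (0 members at an unadjusted p under 0.05, and 0% of all genes by edgeR) or between the early and prepupal stages (6 members at an unadjusted p under 0.05, and 1.48% of all genes), and DESeq2 called none of either. Members with negative interaction estimates numbered 31 of 35 late against early, with a median of -0.25 beside -0.04 over all genes.

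Scaling moved the estimates of all genes together. In NL 2290 genes were called higher and 2890 lower in late than in early larvae with TMM, against 7351 and 1230 under library totals, while 22 to 30 synthetases were called lower and none higher under any scaling. Late against early in NL, the median over all genes was 0.14 with TMM, 0.10 with median-of-ratios, 0.34 with upper-quartile and 0.70 with library totals, and the synthetase median moved with it to -0.94, -0.97, -0.74 and -0.39. The difference between both medians stayed at -1.07, -1.07, -1.08 and -1.10, and in ZI at -0.71 under all of these. For the interaction late against early the synthetase median turned positive under upper-quartile scaling (0.04), TMM over well-expressed genes (0.09) and library totals (0.17), while its distance from the median of all genes stayed at -0.21, -0.21 and -0.22, against -0.21 with TMM. A statement on the direction of a population difference in the fall thus holds only relative to the other genes.

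**Figure D5:**
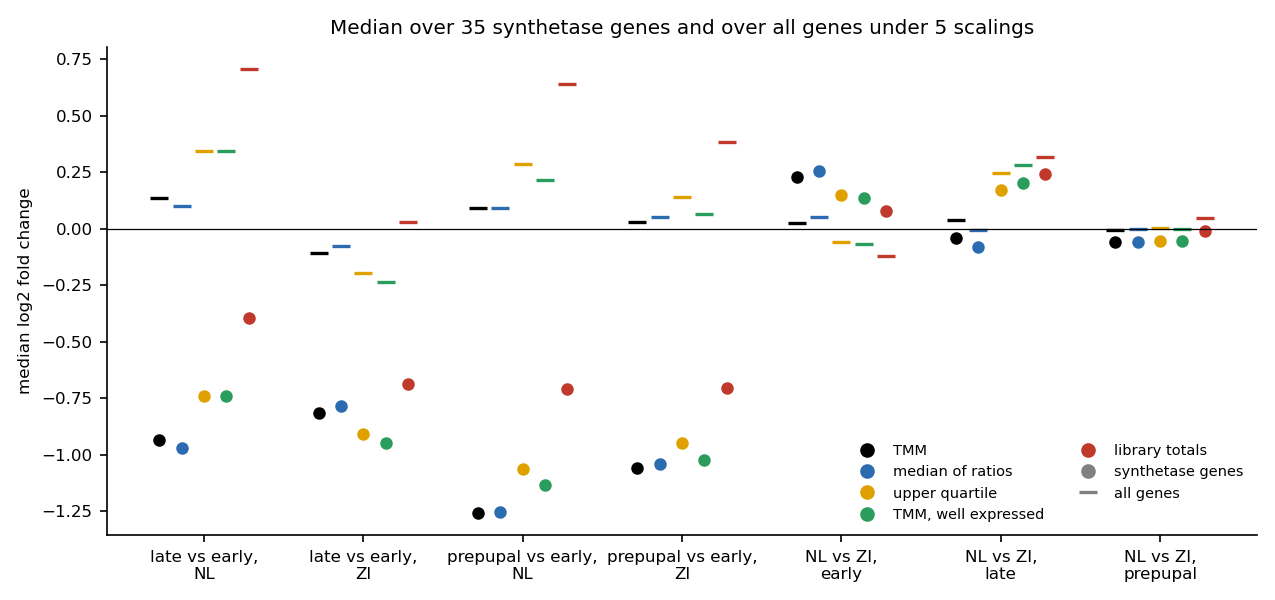
Median log2 fold change over the 35 synthetase genes (circles) and over all 12460 genes (dashes) under 5 ways of scaling the libraries, for stage and population comparisons. Circles lie below the dashes by nearly the same distance under every scaling in the stage comparisons, about -1.07 to -1.10 for late against early in NL, while the positions of both move with the scaling.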

How the data were processed

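The authors deposited whole-number read counts per gene for the 18 libraries, with a gene length column, and no other unit. Per the study's methods, ribosomal RNA was depleted, paired reads were mapped with NextGenMap to FlyBase release 6.21 transcripts, read pairs that mapped ambiguously, to more than 1 gene or transcript, were discarded (which bears on exon bases that genes share), and counts were summed over the transcripts of a gene. How that length was defined is not given in the sources used here. All columns were matched to samples (0 left unmapped). Names came from the Ensembl release 115 annotation, 16343 by gene identifier and 76 by CG number, with 19 left as numbers. Of the other lists, 2 genes were matched by synonym and 2 were not found.

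A gene entered the fit where its counts averaged 15 or more across all 18 libraries. The 6 groups were fitted together in edgeR 4.0.16 (R 4.3.3) with TMM factors, glmQLFit and glmQLFTest, and p-values were adjusted by Benjamini-Hochberg over all kept genes. Calls were made at an adjusted p under 0.05. The SE was recovered from the F statistic, as the size of the estimate divided by the root of F. TPM used the deposited lengths. The alternatives were DESeq2 1.42.0, other scalings, no filter, the compared libraries alone, the replicate block and leaving out each library. Tables and figures were made with Python 3.11.15, numpy 2.4.6, pandas 2.3.3 and matplotlib 3.10.9, and the fit was tested on simulated data. Values in every library were given for the 3 called members with the largest change in each direction of a comparison, the most and least abundant member of each compartment, both PheRS subunits, GluProRS and members with a called interaction. TyrRS, ArgRS-m and the partners shown were chosen after their values were seen. The members and lists were chosen with earlier results of these data known. Depth was 14998610 to 37250385 counts per library.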

Additional observations from a re-analysis of the deposited data

Results flagged for a closer look

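The fall of AspRS between the early and late stages differed between the populations, by -0.65 ± 0.17 on the log2 scale (NL minus ZI, edgeR adjusted p = 0.0338), with a change of -0.89 in NL and -0.24 in ZI. That of CysRS differed by -0.59 ± 0.18 (edgeR adjusted p = 0.0479), with changes of -1.20 in NL and -0.61 in ZI. These 2 calls among 35 members are near the share over all genes, 7.87%. The AspRS call held in 14 of 26 alternatives, with adjusted p values of 0.00693 to 0.11, and the CysRS call in 9, with adjusted p values of 0.0131 to 0.333.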

How the results depend on the processing

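Of the members called in the reported fit, 22 of 30 late against early and 26 of 34 prepupal against early in NL, and 21 of 23 and 25 of 32 in ZI, were called under all 26 alternatives, as was 1 of 1 between the early populations. None of the 3 late population calls, the 2 interaction calls or the 8 prepupal against late calls in ZI was, and 4 of 11 were in NL. With upper-quartile factors 2 members were higher in early NL, 6 higher and 1 lower in late NL and 1 lower in prepupal NL than in ZI, 1 was higher and 1 lower prepupal against late in ZI, and 0 interactions were called. With TMM factors of well-expressed genes these counts were 2, 7 and 1, 1, 1 and 5, and 0, and 21 members were lower prepupal against late in NL. Library totals alone, chosen after seeing the data, gave 7 higher and 0 lower in late NL, 1 and 1 prepupal against late in ZI, 1 higher prepupal against early in ZI and 0 interactions. Median-of-ratios factors gave 0 higher in late NL, 6 lower prepupal against late in NL and 5 in ZI, and 1 interaction. The compared libraries alone gave 2 higher in early NL, 0 and 0 in late NL, 4 lower prepupal against late in NL and 0 interactions. DESeq2 gave 0 higher in late NL, and no filter gave 0 higher in late NL and 1 interaction. The cause was not tested.

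Directions turned under library totals alone for CysRS-m (0.15), SerRS-m (0.0443), TrpRS-m (0.0329) and ValRS-m (0.0265) late against early in NL, for AspRS (0.0715) and LeuRS-m (0.0434) prepupal against early in NL, and for AspRS (0.25) prepupal against early in ZI. The median over all genes was then 0.70, 0.64 and 0.38 in these comparisons.

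Leaving out 1 library at a time gave 1 to 5 members higher in early NL than in ZI (5 without NL early 3 or NL late 1), and 0 to 2 higher and 0 to 3 lower in late NL. The lower calls were 0 without NL late 2, NL late 3, ZI late 2 or ZI late 3, and the higher call was lost without NL late 2, ZI late 1 or ZI late 3. Lower members numbered 23 to 31 late against early and 32 to 34 prepupal against early in NL, and 21 to 24 and 28 to 32 in ZI. Prepupal against late they numbered 6 to 14 in NL, with 0 to 1 higher, and 0 to 15 in ZI (0 without ZI late 2, 1 without ZI prepupal 3, 2 without ZI prepupal 2, 4 without ZI late 3). Interaction calls numbered 0 to 9, being 9 without NL late 1, 5 without NL early 3 and 0 without NL early 1, NL early 2, NL late 2, NL late 3, ZI early 1, ZI early 2, ZI late 2 or ZI late 3.

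Libraries of the same replicate number showed no clear pairing. Deviations of 45 same-number pairs correlated at -0.391 to 0.425 with 15 over 0.1, and 4 of 18 libraries correlated best with their own number. With 3 libraries per group, these correlations cannot tell whether same-number libraries shared a batch. A fit with the replicate block called 31 and 24 members lower late against early and 34 and 31 prepupal against early in NL and ZI, and 3 interactions. Depth limits the rarest mitochondrial members, at 12 counts in the lowest library.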
